A study of Mus musculus with 15 samples.

Results

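The change in gene expression between 2 h and 4 h of curdlan stimulation was followed in D1 dendritic cells (DCs) in which calcineurin was blocked with FK506 throughout. The step was read from 6 of the 15 arrays of the series, 3 of cells given curdlan with FK506 for 4 h and 3 of cells given the same for 2 h, chosen by their labelled treatment and time. The same step without FK506 was read from 6 other arrays, 3 of cells given curdlan alone for 4 h and 3 for 2 h, and the remaining 3 arrays were of nontreated cells. All 15 arrays were of D1 cells, a single line of long-term splenic DCs from C57BL/6 mice that depends on GM-CSF in its medium, and curdlan was given at 10 µg/ml. The labels call the 3 arrays of a group biological replicates without saying how the cultures were kept apart. The p values treat the arrays as independent samples and rest on the spread within groups over all 15 arrays. None of the 15 arrays was of cells given FK506 alone, and the nontreated arrays carry no time label. The length of exposure and the time in culture therefore cannot be told apart.

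Curdlan is a bacterial beta-glucan that binds dectin-1 (Clec7a), a receptor of myeloid cells which signals through the kinase Syk to NF-kB and, through a rise in intracellular calcium, to the phosphatase calcineurin. Calcineurin dephosphorylates NFAT transcription factors, which then enter the nucleus, and FK506 bound to its cellular partner blocks that phosphatase. In DCs this pathway is known for the induction of Il2, Il10, Egr2 and Egr3. Early after stimulation, immediate early transcription factors are induced and decay, and genes that depend on secreted products, such as the interferon-stimulated genes, follow later.

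Levels are log2 RMA values of the array, and a change is the mean level at 4 h minus the mean at 2 h on that log2 scale. Of 19937 genes tested, a gene was said to pass, to rise or to fall when its limma adjusted p was under 0.05 and its fold change was 1.5 or more, which is 0.585 on the log2 scale. Errors are standard errors (SE) of the change with n = 3 arrays in each group. They rest on a variance per gene that limma estimated over all arrays of the series, not on the compared arrays alone. For Olfr111 the SE was 0.384. Its standard deviations were 0.128 and 0.071 with FK506 at 2 h and 4 h, and 1.107 in nontreated cells. Mean correlations between arrays of 1 group were 0.9989 and above for the FK506 groups and 0.9935 and above in all groups. The arrays that stood apart, nontreated replicate 1 and curdlan 2 h replicate 3, are not in the FK506 groups but enter that variance. Without both of them 181 genes rose and 156 fell in the FK506 step. The DC label was checked against 13 markers: Itgax (CD11c) was at 12.24 and 12.34 with FK506 at 2 h and 4 h, H2-Ab1 at 12.97 and 12.98, and Zbtb46 at 9.04 and 9.09. Flt3, at 5.84 and 5.76, was close to the lower quartile of all gene means (5.28), and 3 of the 13 markers were below it at both times, namely Clec9a (4.29 and 4.15), Xcr1 (4.85 and 4.89) and Kit (5.26 and 5.26). The summed level at 2 h with FK506, the log2 of the summed unlogged levels, was 14.32 to 14.40 for these markers. For 12 macrophage markers it was 13.94 to 13.98, so these levels do not tell DCs from macrophages.

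With FK506 present, 180 genes rose from 2 h to 4 h (0.903% of the genes tested) and 156 fell (0.782%). At a limma adjusted p under 0.05 with no fold threshold, 1065 genes were higher and 1723 lower. Counts of list members at an unadjusted p under 0.05, given below, have no share over all genes beside them. They therefore do not show a shift particular to a list. The median change of the genes that rose was 0.79 and that of the genes that fell was -0.70. A change of at least 2-fold was seen for 54 of the genes that rose and 8 of those that fell, and a change of at least 4-fold for 3 and 0. The 3 values at 4 h and the 3 at 2 h did not overlap for 179 of the 180 and for all 156, a property shared by 34.2% of all genes tested. With curdlan alone, 556 genes rose (2.79%) and 260 fell (1.3%) over the same interval. Of the 180 genes that rose with FK506, 150 also rose without it, which is 83.3% of the FK506 list and 27% of the curdlan list. Of the 156 that fell, 100 also fell without it, which is 64.1% of the FK506 list and 38.5% of the curdlan list, and 0 genes passed in opposite directions. Across all genes the changes in both steps had a Pearson correlation of 0.639 and a Spearman correlation of 0.365. These correlations describe genes, which are not independent of each other, measured on arrays that were normalized together.

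The difference between the steps, the change with FK506 minus the change without it, passed the test in the positive direction for 34 genes (0.171%) and in the negative direction for 212 (1.06%). It did not pass for 130 of the 180 genes that rose with FK506 and for 148 of the 156 that fell. The median change of all genes was 0.01 with FK506 and -0.07 without it, and the median difference was 0.05, so the differences below are to be read against that shift. Among the 212 genes with a more negative change, 176 were genes that rose with curdlan alone, and among the 34 with a more positive change, 18 were genes that fell with curdlan alone.

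**Figure D1:**
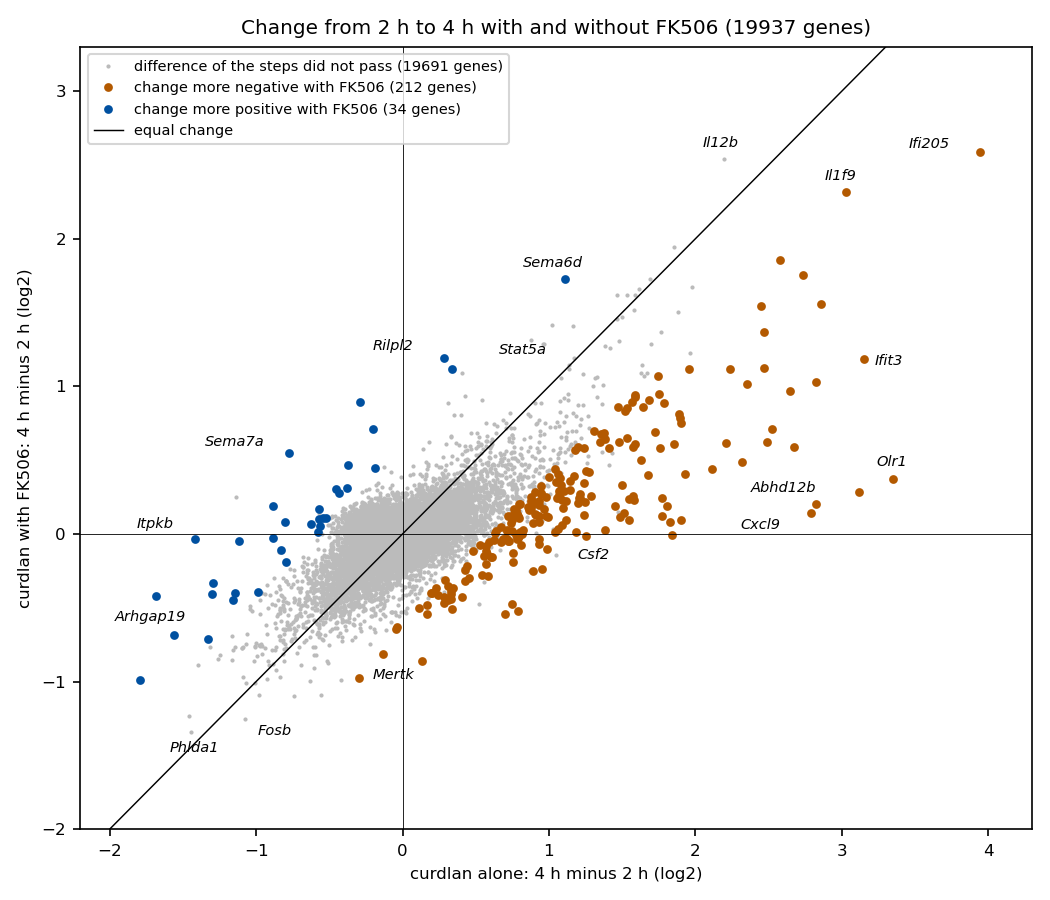
Each point is 1 of the 19937 genes, with its change from 2 h to 4 h with curdlan alone on the x axis and with curdlan and FK506 on the y axis (both log2). The 212 genes whose change was more negative with FK506 lie below the line of equal change, with Olr1, Abhd12b and Cxcl9 farthest from it, and the 34 whose change was more positive lie above it.

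The 4 largest rises with FK506 among genes whose groups did not overlap were those of Ifi205, Il12b, Il1f9 and Tnfsf15. The lack of overlap given for them was a condition of their choice. Ifi205, an interferon-inducible gene of the HIN-200 family, was at 6.59, 6.58 and 6.80 on the 2 h arrays and at 9.12, 9.31 and 9.28 on the 4 h arrays. All 4 h values lay above all 2 h values, a change of 2.59 ± 0.15 (adjusted p = 1.42e-07), or 6.01-fold. Il12b, which encodes the p40 subunit shared by IL-12 and IL-23, went from 7.22, 7.34 and 7.39 to 9.88, 9.84 and 9.85. Again the groups were apart, and the change was 2.54 ± 0.10 (adjusted p = 5.25e-09), or 5.82-fold. Il1f9, the gene of IL-36 gamma, went from 5.91, 5.79 and 6.09 to 8.19, 8.24 and 8.31, also without overlap, with a change of 2.32 ± 0.12 (adjusted p = 5.36e-08). Tnfsf15, the gene of the TNF family cytokine TL1A, went from 8.26, 8.27 and 8.54 to 10.29, 10.28 and 10.36, a change of 1.95 ± 0.14 (adjusted p = 5.42e-07) with no overlap. The next rises were those of the serpin Serpinb9b (1.86 ± 0.10), the kinase gene Ikbke (1.75 ± 0.08), the semaphorin gene Sema6d (1.73 ± 0.11), the ubiquitin ligase adaptor Klhl24 (1.67 ± 0.08), Sh3bp5 (1.62 ± 0.11) and the lymphocyte receptor gene Slamf7 (1.62 ± 0.08). The olfactory receptor genes Olfr110 (1.73 ± 0.13) and Olfr111 (1.66 ± 0.38) also rose, and being near-identical neighbours they may share probe signal, so neither value is certain to belong to its gene alone.

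For several of these genes the difference between the steps did not pass, while the mean levels at both times were lower with FK506 than without. Il12b changed by 2.19 with curdlan alone, and the difference of 0.35 (95% interval 0.05 to 0.64) did not pass after adjustment (adjusted p = 0.212). Its mean level at 4 h was 9.86 with FK506 and 11.54 without, against 6.14 in nontreated cells. For Tnfsf15 the change without FK506 was 1.86, the interval of the difference ran from -0.33 to 0.50, and the 4 h levels were 10.31 with FK506 and 11.51 without. Il1rn, which encodes the IL-1 receptor antagonist, had 2 h values of 8.82, 8.82 and 8.97 and 4 h values of 10.46, 10.44 and 10.56. These groups did not overlap, the change was 1.62 ± 0.07 (adjusted p = 1.17e-08), and with curdlan alone it was 1.59, with an interval of the difference from -0.19 to 0.24. Slamf7 (1.47 without FK506), Sh3bp5 (1.54) and Klhl24 (1.98) likewise had differences that did not pass. Il1f9, Serpinb9b, Ikbke and Ifi205 rose less with FK506 than without, where their changes were 3.03, 2.58, 2.74 and 3.94. The call of the Il1f9 difference (adjusted p = 0.0367) was lost when any of 10 arrays was left out.

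**Figure D2:**
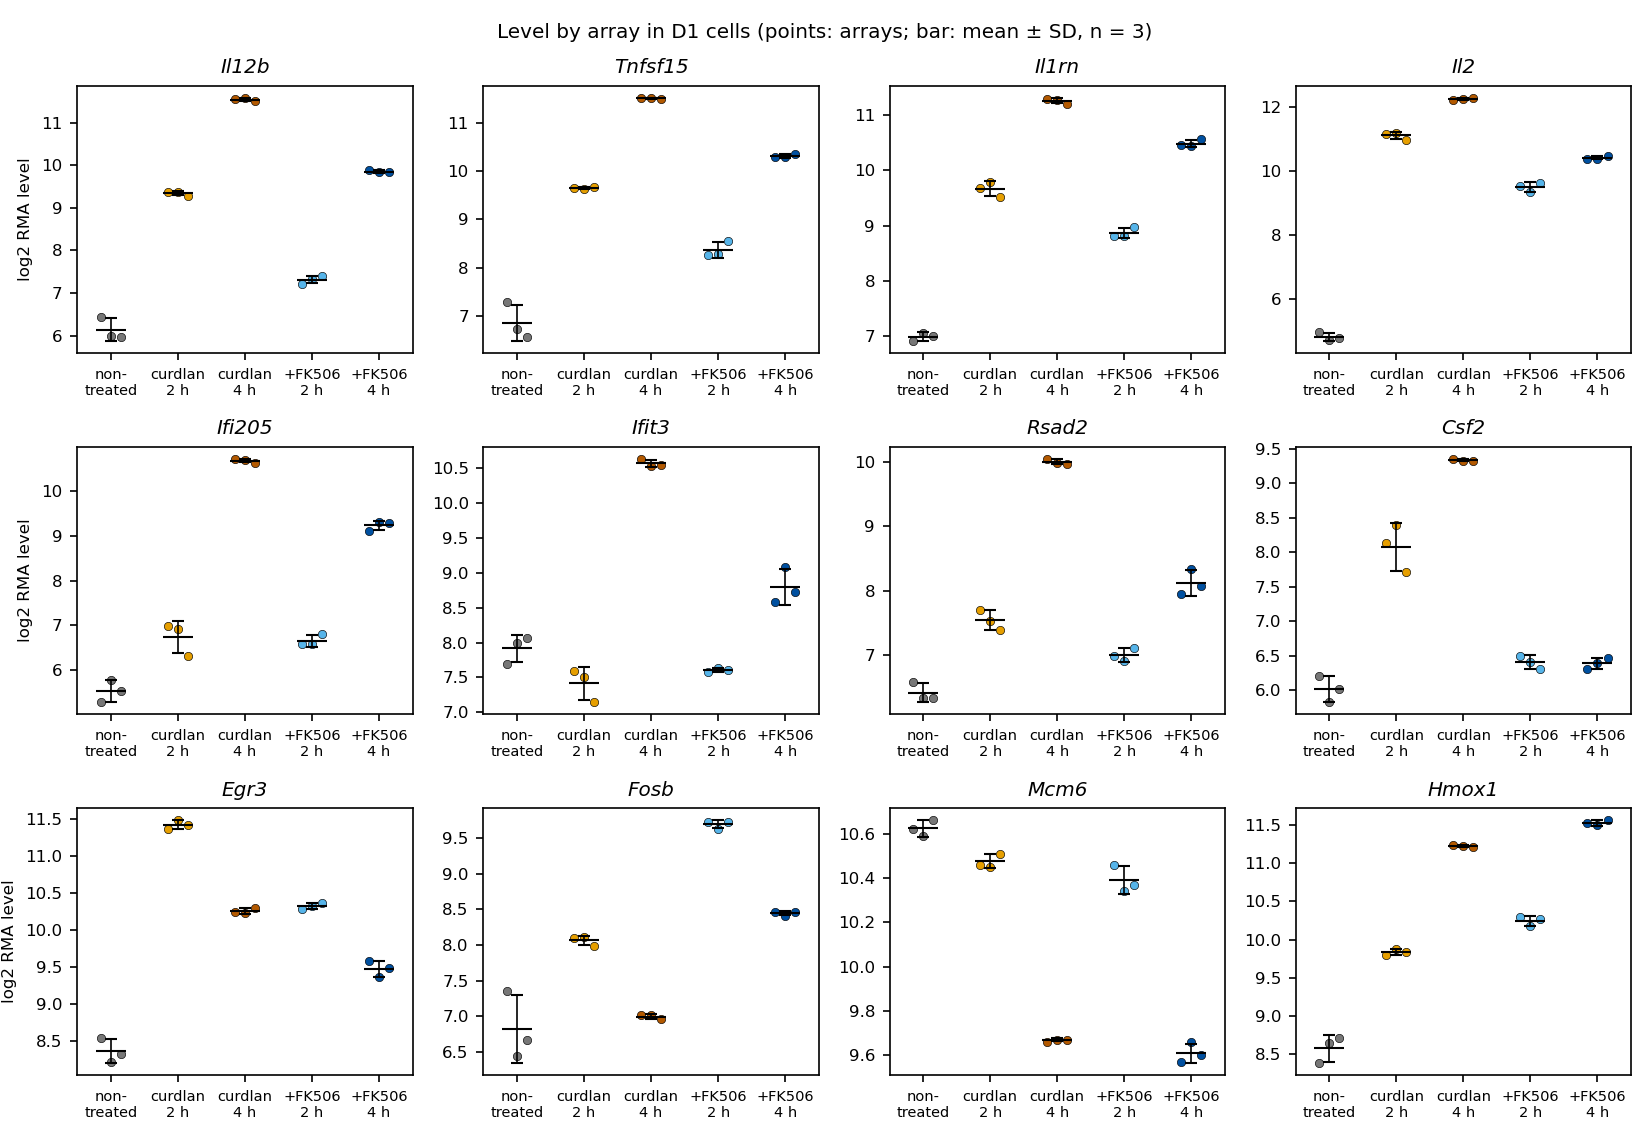
Points are the log2 RMA levels of 12 genes on each of the 15 arrays, by group, with a bar at the mean ± SD (n = 3), and the y axis differs between genes. In the 2 FK506 groups at the right of each panel, Il12b, Tnfsf15, Il1rn, Il2, Ifi205, Ifit3, Rsad2 and Hmox1 were higher at 4 h without overlap, Egr3, Fosb and Mcm6 were lower without overlap, and the Csf2 values overlapped.

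Interferon-stimulated genes rose less with FK506 than without it. Of 33 measured antiviral interferon-stimulated genes, 8 rose with FK506 (Ifi205, Ifit3, Rsad2, Ifit1, Oasl1, Ifit2, Mx2 and Parp14) and 0 fell, with a median change of 0.21, while 30 rose with curdlan alone, with a median of 1.27. The difference passed in the negative direction for 26 of the 33 and in the positive direction for 0. Short promoter stretches of the members with the largest FK506 rises among those that held the core letters of the interferon-stimulated response element are shown here, since these members rose in both steps by unequal amounts. They were taken from RefSeq on GRCm38.p6, are written 5′ to 3′ on the strand of the gene, and have the match to GAAANNGAA, or to its reverse complement, in capitals.
Ifi205, chr1:174031861-174031909, minus strand: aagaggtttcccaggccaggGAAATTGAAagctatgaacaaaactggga
Ifit3, chr19:34583354-34583402, plus strand: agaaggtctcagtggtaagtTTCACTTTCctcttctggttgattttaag
Rsad2, chr12:26456543-26456591, minus strand: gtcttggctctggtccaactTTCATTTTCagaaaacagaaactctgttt
Ifit1, chr19:34640760-34640808, plus strand: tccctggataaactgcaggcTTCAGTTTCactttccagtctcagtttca
In the 250 bases before the start, searched on both strands, these letters were found in 8.18% of 27025 genes of the promoter table. They were found in 12 of the 23 antiviral interferon-stimulated genes with a promoter in the table (52.2%), in 22 of 142 genes that rose with FK506 (15.5%), in 11 of 128 that fell (8.59%) and in 34 of 157 with a more negative change (21.7%). They were also found in 4 of 12 ribosomal protein genes (33.3%) and 2 of 8 housekeeping genes (25%), lists in which 0 genes passed with FK506. Among genes that rose with FK506 and whose difference did not pass, the share was 11 of 104 (10.6%). A match describes the letters of the window and is not evidence that a factor binds there.

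Ifit3, an antiviral gene induced by type I interferon, was at 7.58, 7.64 and 7.61 with FK506 at 2 h and at 8.58, 9.09 and 8.72 at 4 h. The ranges of the groups were apart, and the change was 1.19 ± 0.13 (adjusted p = 3.03e-05) against 3.15 with curdlan alone, a difference of -1.97 ± 0.19 (adjusted p = 4.46e-05). Rsad2, which encodes the antiviral enzyme viperin, went from 6.98, 6.90 and 7.11 to 7.95, 8.34 and 8.07 without overlap, a change of 1.12 ± 0.11 against 2.47, and the difference was -1.34 ± 0.15 (adjusted p = 0.000155). Ifit1 changed by 1.03 ± 0.16 against 2.83, and Oasl1, of the oligoadenylate synthetase family, by 0.89 ± 0.08 against 1.78. Mx2 (0.62 ± 0.17, adjusted p = 0.0228) and Ifit3b (0.59 ± 0.17, adjusted p = 0.0297) passed narrowly. Each lost its call without any of 4 FK506 arrays, where the changes were 0.517 to 0.642 for Mx2 and 0.495 to 0.545 for Ifit3b. With FK506, Ifit3b was below the lower quartile of gene means (5.28) at 2 h and 4 h (4.065 and 4.654), and Mx2 was at 2 h (4.897). The Ifit3b groups overlapped, with 4.34 on a 2 h array and 4.33 on a 4 h array. Ifit3b is a near-identical copy of Ifit3 and the values of these genes may share probe signal. The changes of members that did not pass with FK506 ran from -0.19 (Eif2ak2) to 0.53 (Ifi203). The largest were those of Ifi203, Xaf1 (0.50) and Slfn5 (0.44), against 1.27, 1.63 and 2.11 with curdlan alone. Other such members, among them Oas3 (0.095), Oas2 (0.03) and Ddx58 (-0.07), were near 0, and these rose with curdlan alone by 1.54, 1.39 and 0.93.

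Of 9 measured interferon-inducible GTPases, genes of defence against intracellular microbes, Gbp5 alone rose with FK506 (1.37 ± 0.10, adjusted p = 1.06e-06) against 6 of 9 with curdlan alone, and the difference passed in the negative direction for 6. Gbp genes are close in sequence, so their values are uncertain where probes are shared. Of the 13 measured interferon genes, 0 passed in either step, and with FK506 0 reached an unadjusted p under 0.05 by limma. Ifnb1, the interferon beta gene, was at 4.93, 5.09 and 4.97 at 2 h and at 4.88, 5.06 and 4.92 at 4 h, overlapping values below the lower quartile of gene means. Of 21 receptors, STATs and IRFs of the interferon pathway, 3 rose with FK506 and 0 fell. Stat5a, which transmits signals of the GM-CSF receptor, went from 10.50, 10.58 and 10.61 to 11.75, 11.65 and 11.73. These values did not overlap, the change was 1.15 ± 0.05 (adjusted p = 8.57e-09) against 1.14 without FK506, and the interval of the difference was -0.141 to 0.155. Stat5b changed by 0.87 ± 0.05, against 1.20. Stat2, a subunit of the interferon-activated factor ISGF3, passed narrowly at 0.58 ± 0.04 and changed by 1.41 without FK506, and its call was lost without 2 h replicate 1 or 2 or 4 h replicate 1 (0.564 to 0.578). Irf7, a transcription factor that amplifies interferon production, did not pass with FK506 (0.23 ± 0.08, adjusted p = 0.0885), rose by 1.58 without it, and had a difference of -1.34 ± 0.12.

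The 4 genes with the most negative differences, Olr1, Abhd12b, Cxcl9 and Scnn1g, did not pass with FK506 and rose without it. Olr1, the oxidized LDL receptor LOX-1, was at 4.78, 4.76 and 4.73 at 2 h and at 4.99, 5.15 and 5.25 at 4 h with FK506, and at 8.22, 8.37 and 8.08 at 4 h with curdlan alone. The FK506 values did not overlap but the change of 0.37 ± 0.09 was under the fold threshold, and the difference of -2.98 ± 0.12 passed (adjusted p = 1.85e-08). Abhd12b, of the alpha/beta-hydrolase family, changed by 0.28 ± 0.06 against 3.12. Scnn1g, a subunit of the epithelial sodium channel, changed by 0.20 ± 0.07 against 2.82, and Cxcl9, an interferon-induced chemokine, by 0.14 ± 0.09 against 2.79. Idi2, an isopentenyl diphosphate isomerase, had a mean of 4.65 at both times with FK506 and changed by 1.84 without it. Olr1, Abhd12b and Idi2 lay below the lower quartile of gene means at 2 h with FK506.

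Cytokine, TNF family and costimulatory genes split between these patterns. Of 41 interleukins and colony-stimulating factors, 5 rose with FK506 (Il12b, Il1f9, Il1rn, Il2 and Csf1) and Lif alone fell, against 12 and 0 with curdlan alone, and the difference passed in the negative direction for 8. The list's median change was 0.03 with FK506. Il2, the T cell growth factor, was at 9.54, 9.33 and 9.63 at 2 h and at 10.38, 10.38 and 10.47 at 4 h with FK506. The groups did not overlap, and the change was 0.91 ± 0.08 (adjusted p = 5.20e-06) against 1.13 with curdlan alone, with an interval of the difference from -0.48 to 0.03. Its mean at 4 h was 10.41 with FK506, 12.24 with curdlan alone and 4.83 in nontreated cells. Csf2, the GM-CSF gene, was at 6.50, 6.41 and 6.31 at 2 h and at 6.31, 6.40 and 6.47 at 4 h with FK506, overlapping values, while with curdlan alone it changed by 1.25, and the difference was -1.27 ± 0.19 (adjusted p = 0.00171). Il23a, which pairs with p40 to form IL-23, changed by 0.33 ± 0.14 with FK506 (adjusted p = 0.195) and by 0.99 without, and the difference of -0.66 did not pass (adjusted p = 0.105). It passed when only the arrays of the contrast were fitted (-0.655), with array weights (-0.66) and without both outlying arrays (-0.63). Il1a (0.22), Il1b (0.20), Il6 (0.08), Il10 (0.08) and Tnf (-0.13) did not pass with FK506. Of these, Il1b, at 12.35 and 12.55, and Tnf, at 12.93 and 12.80, were already high at 2 h, whereas Il6, at 3.50 and 3.58, and Il10, at 4.20 and 4.28, were below the lower quartile of gene means.

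Of 16 TNF superfamily ligands, Tnfsf15, Tnfsf4 and Cd70 rose with FK506 and 0 fell. Tnfsf4, which encodes OX40 ligand, changed by 1.01 ± 0.09 against 2.35 without FK506, and Cd70, the ligand of CD27, by 0.61 ± 0.08 against 1.85. Both differences passed (-1.34 ± 0.13 and -1.24 ± 0.11). The rise of Cd70 with FK506 lost its call without 2 h replicate 1 (0.545) or 4 h replicate 1 (0.543). Of 22 costimulatory and coinhibitory molecules, 7 rose with FK506 (Slamf1, Tnfsf4, Fas, Pdcd1lg2, Cd40, Cd274 and Cd70) and 0 fell, against 9 and 0 with curdlan alone. The list's median change was 0.22 in both steps, and the difference passed in the negative direction for 6 of the 22 (Cd274, Pdcd1lg2, Cd70, Tnfsf4, Fas and Ccr7), with a median difference of -0.23. Cd40, the receptor through which T cells help DCs, changed by 0.73 ± 0.06 and reached a mean of 12.15 with FK506 and 12.21 without. Slamf1 changed by 1.09 ± 0.08, Fas, a death receptor, by 0.95 ± 0.13 and Pdcd1lg2, which encodes the PD-1 ligand PD-L2, by 0.91 ± 0.11, against 1.67, 1.75 and 1.68 with curdlan alone. Of 10 measured MHC class II presentation genes 0 passed with FK506, and 4 had an unadjusted p under 0.05.

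Chemokine genes moved in both directions. Of 32 CC and CXC chemokines, 6 rose with FK506 (Ccl1, Cxcl16, Ccl9, Cxcl3, Ccl4 and Ccl22) and 3 fell (Ccl2, Ccl12 and Ccl7), against 9 and 1 with curdlan alone. Ccl1, a ligand of CCR8, was at 9.81, 9.68 and 9.97 at 2 h and at 11.25, 11.19 and 11.29 at 4 h. These groups did not overlap, and the change was 1.42 ± 0.08 (adjusted p = 1.42e-07) against 1.02 without FK506. Cxcl16 changed by 1.07 ± 0.15, Ccl9 by 1.01 ± 0.07 and Ccl4 by 0.89 ± 0.07. Cxcl3, a neutrophil attractant, changed by 0.97 ± 0.11 against 2.64, with a difference of -1.67 ± 0.16. The monocyte attractants Ccl12 and Ccl7 fell by 0.86 and 0.68 with FK506, where curdlan alone gave 0.13 and -1.56, so the difference was negative for the former (-0.99) and positive for the latter (0.88). Among 18 chemokine receptors, Ccr3 alone rose with FK506 (1.23 ± 0.16, adjusted p = 0.000115), 5 rose with curdlan alone, and the difference passed in the negative direction for 5 (Ccr7, Ccrl2, Cxcr2, Cxcr4 and Cxcr5).

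**Figure D3:**
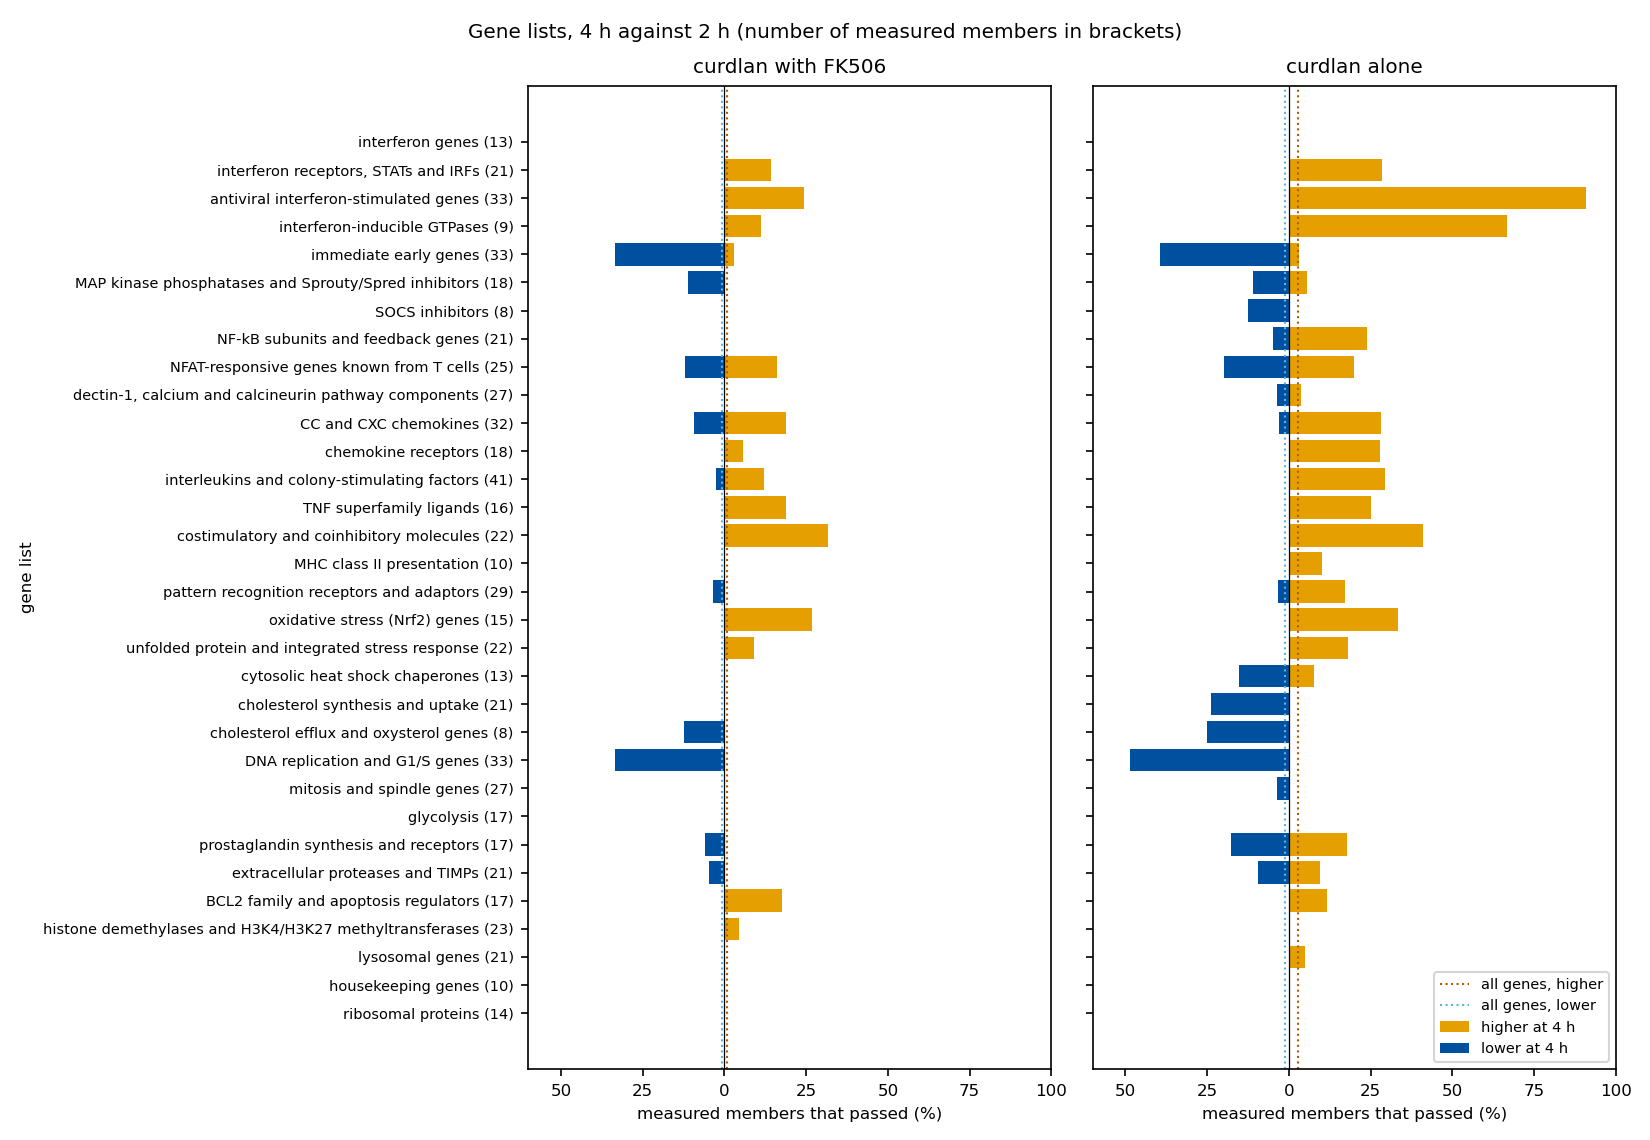
Bars give the percentage of the measured members of each list that passed as higher (right) or lower (left) at 4 h than at 2 h, with FK506 in the left panel and with curdlan alone in the right panel, and dotted lines give the percentages over all genes. Antiviral interferon-stimulated genes passed as higher for 8 of 33 members with FK506 and 30 of 33 without, while the immediate early and DNA replication lists passed as lower for 11 of 33 members each with FK506.

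The 3 largest falls with FK506, chosen in the same way among genes whose groups did not overlap, were those of Phlda1, Fosb and Dusp7. Phlda1, an immediate early gene, was at 10.54, 10.30 and 10.38 at 2 h and at 9.09, 9.03 and 9.08 at 4 h. All 4 h values were below all 2 h values, and the change was -1.34 ± 0.10 (adjusted p = 1.08e-06) against -1.45 without FK506. Fosb, a subunit of the transcription factor AP-1, went from 9.73, 9.63 and 9.73 to 8.46, 8.41 and 8.47, a change of -1.25 ± 0.16 (adjusted p = 8.95e-05) without overlap. Its change with curdlan alone was -1.07, but from a lower mean level (8.07 at 2 h, against 9.70 with FK506). Dusp7, a phosphatase of the MAP kinase ERK, went from 11.41, 11.42 and 11.41 to 10.19, 10.16 and 10.19, a change of -1.24 ± 0.04 (adjusted p = 1.80e-09) with no overlap. Further falls were those of Zfpm1, a cofactor of GATA factors (-1.10 ± 0.04), the scaffold Iqgap2 (-1.09 ± 0.06), Pag1, an adaptor that recruits the kinase Csk (-1.09 ± 0.06), Rpp25, a subunit of RNase P (-1.01 ± 0.09), Trappc3l (-1.01 ± 0.07), the ephrin receptor gene Epha2 (-0.996 ± 0.044), Sipa1l2 (-0.99 ± 0.05), Nxpe5 (-0.99 ± 0.09) and the lectin gene Cd209a (-0.99 ± 0.07). Pag1 and Sipa1l2 did not pass with curdlan alone (-0.56 and -0.42), and their differences of -0.53 and -0.57 were under the fold threshold.

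Several immediate early genes fell in both steps. Of the 33 in the list, 11 fell with FK506 (Phlda1, Fosb, Ier2, Egr3, Egr2, Fosl2, Jun, Btg2, Nr4a1, Egr1 and Csrnp1) and Nr4a3 alone rose, with a median change of -0.29. With curdlan alone 13 fell and 1 rose, with a median of -0.46, and the difference passed for Klf10 alone. Egr3, a zinc finger factor induced through NFAT, was at 10.29, 10.33 and 10.37 at 2 h and at 9.58, 9.36 and 9.49 at 4 h with FK506. The groups did not overlap, and the change was -0.85 ± 0.07 (adjusted p = 3.49e-06) against -1.17 without FK506, where the 2 h mean was 11.43. Egr2 changed by -0.77 ± 0.06, Nr4a1, an orphan nuclear receptor, by -0.68 ± 0.07 and Egr1 by -0.68 ± 0.06. The mean of Egr2 at 4 h with FK506, 9.36, stood beside 9.33 in nontreated cells, and that of Nr4a1, 9.84, beside 6.62. Nr4a3, of the same family as Nr4a1, was higher at 4 h (0.81 ± 0.09, adjusted p = 3.85e-05) and changed by 0.40 with curdlan alone. Among 18 MAP kinase phosphatases and Sprouty or Spred inhibitors, Dusp7 and Dusp2 fell and 0 rose, and the call of Dusp2 (-0.61 ± 0.14) was lost without 4 h replicate 3 (-0.577). Btg2, an antiproliferative immediate early gene, held the cyclic AMP response element TGACGTCA before its start, printed as above because the element is known from immediate early promoters.
Btg2, chr1:134079294-134079341, minus strand: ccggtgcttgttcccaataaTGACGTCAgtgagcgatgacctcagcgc
These letters were found in 3 of 24 immediate early genes with a promoter in the table (12.5%) and in 1.77% of all promoter genes. Among the genes tested the share was 2.33%. It was 4 of 128 (3.12%) for genes that fell with FK506 and 3 of 142 (2.11%) for those that rose.

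Genes known as NFAT targets in T cells did not share a direction. Of 25 measured, 4 rose with FK506 (Il2, Nr4a3, Tnfrsf9 and Zbtb32) and 3 fell (Egr3, Egr2 and Nr4a1), with a median of -0.01, and with curdlan alone 5 rose and 5 fell. The difference passed for Rcan1, in the positive direction, and for Csf2, in the negative direction. Rcan1, a calcineurin inhibitor that NFAT itself induces, was at 7.77, 7.85 and 7.83 at 2 h and at 7.87, 7.92 and 7.91 at 4 h with FK506. These groups did not overlap but lay close together, and the change was 0.08 ± 0.06 (adjusted p = 0.652). With curdlan alone Rcan1 fell from a mean of 9.38 to 8.59, and nontreated cells were at 8.01. Tnfrsf9, which encodes the costimulatory receptor 4-1BB, changed by 0.75 ± 0.06 with FK506 and by 0.98 without. The core letters GGAAAA, which NFAT recognizes, are shown in capitals, on either strand, for list members that rose with FK506 and held them.
Il2, chr3:37126066-37126111, minus strand: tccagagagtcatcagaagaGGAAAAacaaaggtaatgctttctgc
Tnfrsf9, chr4:150919997-150920042, plus strand: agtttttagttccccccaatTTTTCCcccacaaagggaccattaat
So short a motif is common, being found in 22.9% of all promoter genes, in 10 of 19 list members with a promoter (52.6%), in 37 of 142 genes that rose with FK506 (26.1%) and in 29 of 128 that fell (22.7%). It was found in 13 of 31 genes with a more positive change (41.9%) and in 43 of 157 with a more negative one (27.4%). Among the 27 measured components of the dectin-1, calcium and calcineurin pathway 0 passed with FK506, with 14 at an unadjusted p under 0.05 by limma, and Clec7a itself changed by 0.08 ± 0.05. Syk was the closest to the fold threshold (0.54 ± 0.06, adjusted p = 1.50e-05). Of 21 NF-kB subunits and feedback genes 0 passed, with 17 at an unadjusted p under 0.05 and Nfkbiz (-0.56 ± 0.05) the farthest from 0. With curdlan alone 5 of these rose and 1 fell.

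A group of genes of DNA replication and entry into S phase fell in both steps. Of 33 measured, 11 fell with FK506 (Gins1, Mcm6, Mcm4, Rrm2, E2f1, Chaf1b, Mcm3, E2f2, Mcm2, Lig1 and Prim1) and 0 rose, with a median change of -0.48. With curdlan alone 16 fell and 0 rose, with a median of -0.58, and the difference passed for 0 of the 33. Mcm6, a subunit of the replicative helicase, was at 10.46, 10.34 and 10.37 at 2 h and at 9.57, 9.66 and 9.60 at 4 h. The groups did not overlap, the change was -0.78 ± 0.04 (adjusted p = 6.07e-08) against -0.81 without FK506, and the interval of the difference was -0.105 to 0.156. Gins1, of the same helicase complex, changed by -0.82 ± 0.12, Rrm2, a subunit of ribonucleotide reductase, by -0.71 ± 0.04 and E2f1, a transcription factor of the G1/S transition, by -0.66 ± 0.06. Ccnd2, a D-type cyclin, had the most positive change in the list (0.29), which did not reach the fold threshold. Of 27 mitosis and spindle genes 0 passed. Their changes ran from -0.57 to -0.09, with a median of -0.29 against 0.01 over all genes tested. Kif23 (-0.57 ± 0.05) was just under the fold threshold.

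Some oxidative stress genes controlled by the transcription factor Nrf2 rose in both steps. Of 15 measured, 4 rose with FK506 and 0 fell, with a median change of 0.30, and with curdlan alone 5 rose and 0 fell, with a median of 0.42. Hmox1, the heme-degrading enzyme heme oxygenase-1, was at 10.30, 10.18 and 10.27 at 2 h and at 11.52, 11.49 and 11.56 at 4 h with FK506. The groups did not overlap, the change was 1.28 ± 0.07 (adjusted p = 5.93e-08) against 1.38, and the interval of the difference was -0.32 to 0.10. Slc7a11, a subunit of the cystine transporter, changed by 0.95 ± 0.11, Srxn1, sulfiredoxin, by 0.89 ± 0.06 and Nqo1, a quinone reductase, by 0.80 ± 0.08. The difference passed for 0 of the 15. Of 22 genes of the unfolded protein and integrated stress response, Trib3 (0.88 ± 0.11) and Chac1 (0.61 ± 0.06) rose and 0 fell.

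**Figure D4:**
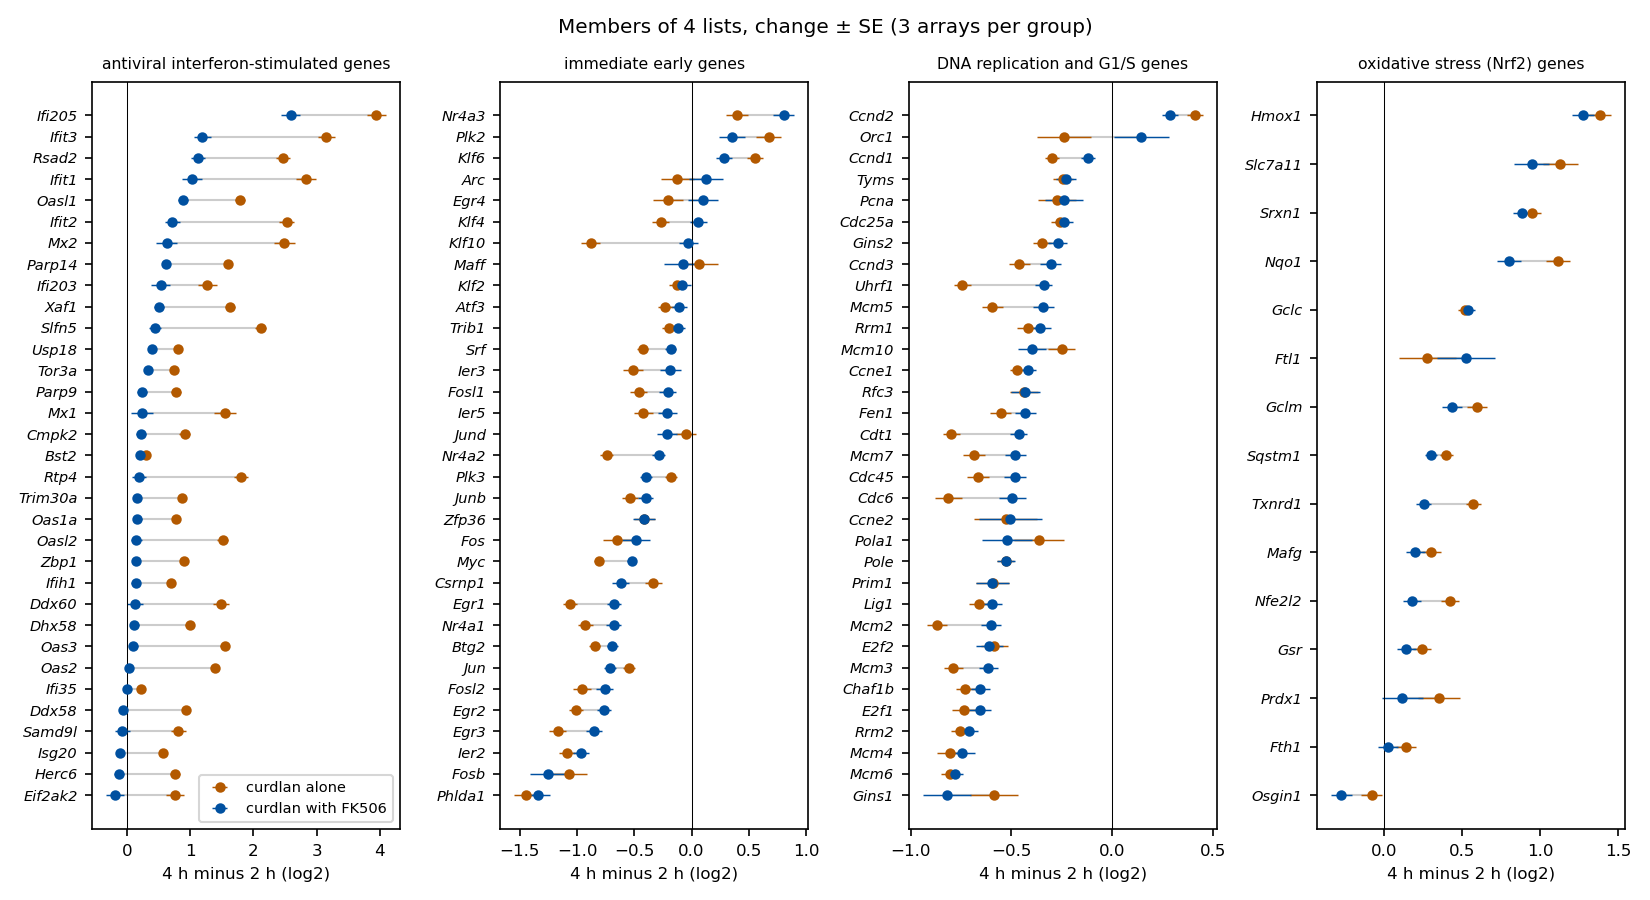
Each row is a measured member of the named list, with its change from 2 h to 4 h (log2, ± SE, 3 arrays per group) with FK506 in blue and with curdlan alone in brown, joined by a grey line. The colours lie far apart for most antiviral interferon-stimulated genes (median 0.21 with FK506 and 1.27 without) and close together in the DNA replication list (-0.48 and -0.58).

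The change was more positive with FK506 for 34 genes. Of these, Sema6d, Rilpl2, Slc1a4, Frmd4b and Phlpp1 rose in the FK506 step, and the difference of Sema6d (0.62 ± 0.15, adjusted p = 0.035) lost its call when any of 11 arrays was left out. Frmd4b, a scaffold protein gene, went from 8.98, 8.91 and 8.97 to 9.84, 9.84 and 9.84 with FK506, without overlap, a change of 0.89 ± 0.06 (adjusted p = 7.22e-07), while with curdlan alone it changed by -0.29. Rilpl2, a gene of the Rab-interacting lysosomal protein family, changed by 1.19 ± 0.06 against 0.28, and Phlpp1, a phosphatase of Akt, by 0.71 against -0.20. Sema7a, a semaphorin, was at 8.16, 8.21 and 8.29 at 2 h and at 8.77, 8.76 and 8.78 at 4 h with FK506, and its mean went from 10.44 to 9.66 with curdlan alone. The FK506 values did not overlap but the change of 0.55 ± 0.04 was just under the fold threshold, and the difference of 1.33 ± 0.06 passed (adjusted p = 3.80e-08). The others of the 8 most positive differences belonged to genes that fell with curdlan alone and did not pass with FK506. Among them were the inositol phosphate kinase gene Itpkb (-0.03 with FK506 and -1.42 without), Arhgap19 (-0.42 and -1.68), Jarid2, a partner of Polycomb repressive complex 2 (-0.05 and -1.12), the heat shock protein gene Hspa1a (0.19 and -0.88) and Spin4 (-0.33 and -1.30). For Itpkb, Jarid2, Spin4 and Hspa1a the 2 h mean was already lower with FK506 (6.97, 7.62, 8.33 and 7.31) than without (8.34, 9.04, 10.75 and 9.19). The same held for Frmd4b (8.95 against 10.37) and Rilpl2 (9.05 against 10.51). At 4 h Frmd4b (9.84 against 10.08) and Rilpl2 (10.24 against 10.79) were still lower with FK506 than without. For Arhgap19 the 2 h mean was higher with FK506 (9.395 against 9.145).

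A small set fell more with FK506, chosen for naming after its values were seen. Gpr155, Ccl12, Mertk, Peli2 and Lif fell in the FK506 step with a difference that passed in the negative direction. Mertk, a receptor tyrosine kinase of apoptotic cell uptake, was at 6.88, 7.03 and 7.04 at 2 h and at 6.28, 6.15 and 6.08 at 4 h with FK506. Both groups were apart, the change was -0.81 ± 0.09 (adjusted p = 3.72e-05) and the difference was -0.68 ± 0.13 (adjusted p = 0.00888). Its means were 8.51 and 8.38 with curdlan alone and 8.11 in nontreated cells. Mertk was the one macrophage marker of 12 that passed, and the summed level of those markers was 13.94 to 13.98 at 2 h and 13.88 to 13.90 at 4 h. Cd5, a surface receptor best known from T cells, fell by 0.75 (adjusted p = 1.52e-07) and changed by -0.23 without FK506. The Cd5 difference of -0.52 was under the fold threshold and did not pass. The summed level of the 8 T cell markers was 9.92 to 9.98 at 2 h and 9.42 to 9.53 at 4 h. That sum includes Cd5, whose mean went from 9.45 to 8.71, so it counts the fall of Cd5 again. The other 7 T cell markers did not pass, and Cd3e stayed between means of 6.00 and 5.97. Cd209a was the one DC marker of 13 that passed.

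Further lists gave few calls with FK506. Of 21 cholesterol synthesis and uptake genes 0 passed, with 13 at an unadjusted p under 0.05, and the median change was -0.13 against -0.40 with curdlan alone, where 5 fell. Ch25h, cholesterol 25-hydroxylase, fell with FK506 (-0.77 ± 0.07), as did the prostaglandin E receptor gene Ptger3 (-0.76 ± 0.06) and Plau, the urokinase gene (-0.75 ± 0.05). Of 17 BCL2 family and apoptosis regulators, Bmf and Bcl2l11, which encode BH3-only proteins, and Casp4 rose (0.93, 0.62 and 0.62) and 0 fell. Kdm5c, a histone H3K4 demethylase gene, was the one of 23 histone methylation enzymes that passed (0.63 ± 0.05). In the glycolysis, lysosomal, SOCS inhibitor and cytosolic heat shock lists 0 genes passed. By limma, 7 of 17, 9 of 21, 2 of 8 and 3 of 13 had an unadjusted p under 0.05. The share over all genes is not given beside these counts. Of 10 housekeeping genes and 14 ribosomal protein genes 0 passed, with 1 and 0 at an unadjusted p under 0.05, and Actb changed by -0.01 ± 0.03.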

How the data were processed

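RNA of D1 cells was measured on 15 Affymetrix Mouse Gene 1.0 ST arrays, 5 groups of 3. The authors deposited log2 RMA values (background correction, quantile normalization and median polish, made with affy in R 2.15.2 per the submitters' processing notes) of 34760 probe sets. Quantile normalization gives arrays like distributions, so a shift of all genes would not show. The 21640 probe sets with 1 gene symbol in the platform annotation were used (1321 had several, 11799 none). Where a gene had several (954 genes), only the probe set of highest mean was kept, leaving 19937 genes. limma 3.58.1 in R 4.3.3 was fitted to all 15 arrays with 1 mean per group (10 residual degrees of freedom). Tests were two-sided and Benjamini-Hochberg adjusted over all genes, and 95% intervals are unadjusted. The fit was tested on simulated data. Members and gene lists were chosen with earlier results of these data known, and lists were described by counts with no test. Genes named were the 12 largest rises and falls among genes that passed without overlap of the groups, and up to 5 members of each list. The 8 largest differences each way and a fixed set were also named, with some further genes outside this rule. Same-numbered arrays did not deviate together in the FK506 groups (r from -0.23 to 0.059), so numbers were not used as a block. Alternatives changed the arrays fitted, scaling, weights, trend, fold threshold, low-value filter, probe sets, block and single arrays. The number of arrays limits the precision (median SE 0.077). Promoter letters were read from RefSeq's table.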

Additional observations from a re-analysis of the deposited data

Results flagged for a closer look

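The change from 2 h to 4 h differed with and without FK506, by limma's test of the difference itself, for 38 of the named genes. Values are the change with FK506 minus the change without it, on the log2 scale, and with n = 3 arrays in each group. Positive differences were those of Itpkb (1.38), Sema7a (1.33), Arhgap19 (1.26), Frmd4b (1.18), Hspa1a (1.07), Jarid2 (1.07), Spin4 (0.97), Rilpl2 (0.91), Rcan1 (0.88), Nxpe5 (0.80) and Sema6d (0.62). Of these, Sema7a, Frmd4b, Hspa1a and Rcan1 had changes of opposite sign in the steps. With FK506 the changes of Hspa1a (0.19, limma adjusted p = 0.545) and Rcan1 (0.08, limma adjusted p = 0.652) did not pass. That of Sema7a with FK506 (0.55) and that of Frmd4b without it (-0.29) were under the fold threshold. Negative differences under 1 in size were those of Il1a (-0.66), Mertk (-0.68), Il1f9 (-0.71), Serpinb9b (-0.72), Pdcd1lg2 (-0.77), Fas (-0.80), Stat2 (-0.82), Il6 (-0.85), Oasl1 (-0.90) and Ikbke (-0.98). Il6 lay below the lower quartile of gene means throughout, so its value concerns a dim probe set. Negative differences between 1 and 2 in size were those of Gbp5 (-1.10), Cd70 (-1.24), Csf2 (-1.27), Tnfsf4 (-1.34), Irf7 (-1.34), Rsad2 (-1.34), Ifi205 (-1.36), Cxcl3 (-1.67), Ifit1 (-1.80), Idi2 (-1.85), Mx2 (-1.86) and Ifit3 (-1.97). The remaining differences were those of Ifit3b (-2.09), Scnn1g (-2.62), Cxcl9 (-2.65), Abhd12b (-2.83) and Olr1 (-2.98). Leaving out single arrays ended the call of the difference in 12 of 12 cases for Il1a, 11 for Sema6d, 10 for Il1f9 and 8 for Fas.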

How the results depend on the processing

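Under 23 other settings the fold threshold moved the counts most. With no fold threshold 1065 genes rose and 1723 fell with FK506, 2465 and 2726 with curdlan alone, and the difference was positive for 278 and negative for 594. At 2-fold the counts were 54 and 8, 196 and 37, and 6 and 59. Leaving out each array in turn gave 167 to 193 rises and 144 to 161 falls with FK506, 499 to 597 and 249 to 290 with curdlan alone, and 28 to 37 positive and 184 to 219 negative differences. Centring the arrays on their medians gave 149 rises, all 149 among those reported, and 191 falls, and repeated quantile normalization gave 189 and 127. Without both outlying arrays the difference passed for 40 and 213 genes, and curdlan alone gave 504 rises and 290 falls. The replicate numbers do not pair the arrays, and with them as a block 180 genes rose and 155 fell with FK506, 555 and 260 with curdlan alone, and the difference passed for 32 and 202. Apart from the fold thresholds, 7 named FK506 calls were lost under at least 1 setting (Ifit3b, Mx2, Stat2, Dusp2, Cd70, Chac1 and Bcl2l11) and 3 were gained (Sema7a, Nfkbiz and Kif23), and calls of the difference were lost for 4 named genes (Fas, Il1a, Il1f9 and Sema6d) and gained for 9 (Bmf, Casp4, Ccl4, Ccr3, Chac1, Il23a, Sipa1l2, Slamf1 and Trib3). The cause was not tested. No direction reversed among these results. Calls near the fold threshold and genes with low signal are the least certain.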

Other observations

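Probe sets outside the genes tested gave calls too. In the same fit, 63 of the 11799 probe sets without a gene symbol passed as higher (0.534%) and 22 as lower (0.186%) at 4 h than at 2 h with FK506, and 4 and 3 of the 1321 with several symbols. Of 12 genes that passed and have several probe sets with 1 symbol, 0 had probe sets that passed in opposite directions, and for 7 no other probe set passed.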
